A study of Mus musculus with 16 samples.

Results

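The comparison described here is the difference between genotypes in the response of mouse colon organoids to tumour necrosis factor alpha (TNFa). It was computed for every gene as the TNFa effect in mutant organoids minus the TNFa effect in wild-type organoids, from log2 signals on all 16 arrays of the series, 4 in each of 4 groups. The groups were wild-type (WT) organoids, WT organoids given recombinant TNFa for 12 h (50 ng/ml), mutant organoids titled ATF2/7 fl, and mutant organoids given the same TNFa. Organoids are balls of epithelium grown from the gut, here from colon in ENR medium, and none of the groups holds the immune cells that make most TNFa in the body. The labels give the mutant genotype as ATF2 fl/fl with ATF7 KO in one field and as ATF2 KO with ATF7 floxed in another, so it was kept as 1 genotype, and recombination of the floxed allele is not stated. The TNFa protocol stands in the labels of all samples, and those whose own titles name TNFa were taken as treated. No label gives the age or strain of the mice, or says that numbered samples came from separate animals or cultures, so p-values reflect only how these samples vary, which may be technical. A positive difference means that the effect was more positive in mutant: a larger rise, a smaller fall, or a rise in place of a fall.

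TNFa binds TNF receptor 1, which assembles a complex of adaptor, ubiquitin ligase and kinase proteins. One branch of the signal frees NF-kB, the transcription factor that drives chemokine, cytokine and feedback inhibitor genes. Another branch runs through the kinases TAK1, JNK and p38 to AP-1 factors, and ATF2 and its close relative ATF7 are DNA-binding proteins that JNK and p38 phosphorylate. They bind cyclic AMP response elements and AP-1-like sites as homodimers or with Jun proteins. The colon epithelium consists of stem cells, absorptive colonocytes and secretory cells, the last comprising mucus-making goblet cells, hormone-making enteroendocrine cells and rare tuft cells, while the defensin- and lysozyme-rich Paneth cell belongs mainly to the small intestine.

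All 9 colon epithelium markers on the array were bright, with mean signals averaged over them between 11.34 and 11.53 log2 on every array. Of 6 immune cell markers, 5 stayed in all groups below 6.56 log2, the highest of the arrays' 40th percentiles, under which signals are called dim here. The same held for 10 of 11 stromal, endothelial and glial markers. The exceptions were the macrophage lysozyme gene Lyz2, taken up with the other lysozyme gene below, and the collagen gene Col1a1. Atf2 signal in WT was 10.16 ± 0.14 log2 without TNFa and 10.18 ± 0.02 with it (mean ± SD, n = 4 arrays), and in mutant 10.15 ± 0.03 and 10.12 ± 0.01. Where the Atf2 probes lie is not given, and probes that lie beyond a deletion still give signal. The Atf2 signal therefore cannot tell an intact gene from a deleted one here, and Atf7 was not analysed. Array WT + TNFa 2 stood apart, correlating on average at 0.977 with the rest of its group, where every other array reached at least 0.986, and the median SD of a gene was 0.14 log2 in WT with TNFa, 0.099 in WT, 0.10 in mutant and 0.083 in mutant with TNFa. Without WT + TNFa 2 that of its group was 0.092.

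The difference between the TNFa effects of the genotypes passed the test for a single gene, Reg4, which encodes a secreted C-type lectin of goblet and other secretory cells. It was 1 of 11766 genes tested (0.0085%) in limma's moderated test of the difference, called at Benjamini-Hochberg adjusted p under 0.05. For comparison, the TNFa effect passed for 1269 genes in WT (10.8%) and for 704 in mutant (5.98%), in the same fit. A difference of 2 effects carries the error of all 4 groups: its median SE was 0.12 log2. For 82.9% of genes the 95% interval of the difference lay within 0.5 log2 of 0, and for 99.3% within 1 log2. At unadjusted p under 0.05, 855 genes (7.27%) stood out, 527 with a positive difference (4.48%) and 328 with a negative one (2.79%). With no filter on dim genes the split was 559 positive and 603 negative. These percentages are the background against which the counts in gene lists below are to be read, and genes named from here on did not pass the adjusted test unless that is stated.

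**Figure D1:**
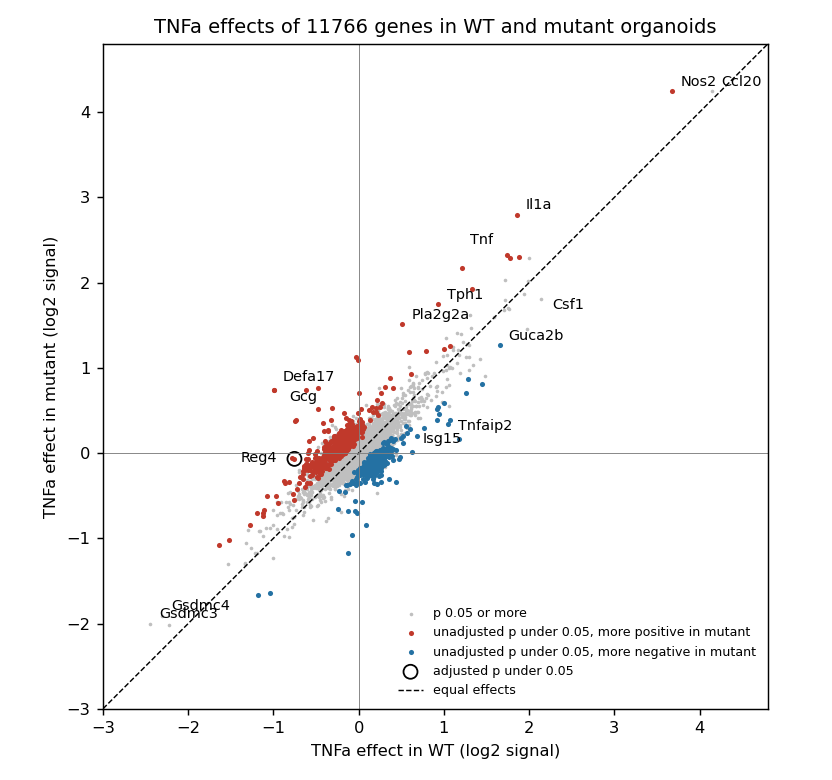
The TNFa effect of each of 11766 genes in WT (horizontal axis) and in mutant (vertical axis), in log2 signal, with the dashed line marking equal effects. Red and blue points had unadjusted p under 0.05 for the difference, 527 more positive and 328 more negative in mutant, and the ringed point is Reg4, the gene called after adjustment.

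Reg4 fell with TNFa in WT and not detectably in mutant. Its signals were 11.10, 11.07, 10.86 and 10.88 log2 on the 4 WT arrays and 10.20, 10.25, 10.22 and 10.23 with TNFa. In mutant they were 11.53, 11.54, 11.68 and 11.48 without TNFa and 11.44, 11.36, 11.53 and 11.62 with it. The WT groups did not overlap, while the mutant groups did, and every mutant array was above every WT array. TNFa lowered Reg4 1.69-fold in WT (−0.75 log2, limma adjusted p = 1.6e-06, n = 4 per group), and the estimate in mutant was −0.068 log2 (adjusted p = 0.763). The difference was 0.69 log2 (SE 0.100, 95% interval 0.47 to 0.90, limma adjusted p = 0.0344). Its size barely moved when any array was left out (0.64 to 0.73), but the call was lost without 11 of the 16 arrays in turn: WT 1 or 2, WT + TNFa 1, 2 or 3, mutant 1, 2 or 4, and mutant + TNFa 1, 3 or 4, with adjusted p up to 0.138 (0.0607 without WT + TNFa 2). It was lost as well with no filter on dim genes (0.0564), and no gene was called when a minimum change of 1.5-fold was asked for. Fitting the replicate number as a block also left no call (Reg4 limma adjusted p = 0.226 over all groups and 0.193 within genotype).

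Since ATF2 and ATF7 bind DNA, the stretch of 250 bases just before the start was read for the genes of this comparison from the RefSeq promoter table (GRCm38.p6), which held 10 of the 12 genes with the smallest p on the positive side and 8 of 12 on the negative side. Sequences run 5′ to 3′ along the gene and end at the base before its start. Shown are Reg4, the called gene, at chr3:98221906-98222155 on the plus strand, and Scg2, an enteroendocrine gene with a cyclic AMP response element, at chr1:79440027-79440276 on the minus strand. Also shown are Il1a, a cytokine gene with an AP-1 site, at chr2:129309973-129310222 on the minus strand, and Ccl20, a gene with a large response in both genotypes and an NF-kB site, at chr1:83116516-83116765 on the plus strand. Capitals mark the match.
Reg4: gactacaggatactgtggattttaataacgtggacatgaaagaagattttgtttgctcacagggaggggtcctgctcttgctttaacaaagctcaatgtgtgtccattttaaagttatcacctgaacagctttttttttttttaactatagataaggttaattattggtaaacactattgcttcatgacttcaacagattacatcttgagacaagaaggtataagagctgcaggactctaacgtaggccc
Scg2: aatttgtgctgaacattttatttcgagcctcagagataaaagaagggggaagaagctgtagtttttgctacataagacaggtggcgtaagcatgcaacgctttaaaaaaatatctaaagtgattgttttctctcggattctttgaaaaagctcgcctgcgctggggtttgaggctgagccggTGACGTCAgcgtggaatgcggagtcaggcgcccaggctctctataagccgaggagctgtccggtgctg
Il1a: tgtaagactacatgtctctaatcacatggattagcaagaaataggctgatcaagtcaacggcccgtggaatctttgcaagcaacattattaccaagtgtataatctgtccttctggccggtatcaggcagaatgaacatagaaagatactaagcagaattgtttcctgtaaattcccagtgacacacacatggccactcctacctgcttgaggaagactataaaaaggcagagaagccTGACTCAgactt
Ccl20: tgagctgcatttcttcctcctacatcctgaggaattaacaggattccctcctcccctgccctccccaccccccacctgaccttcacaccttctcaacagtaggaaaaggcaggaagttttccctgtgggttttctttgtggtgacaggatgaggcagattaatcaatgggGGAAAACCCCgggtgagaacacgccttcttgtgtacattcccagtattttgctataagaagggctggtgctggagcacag

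Both strands were searched for the full cyclic AMP response element TGACGTCA, its part TGACG (which every full element contains), the AP-1 site TGANTCA and the NF-kB consensus. In Scg2 the full element lay 68 to 61 bases before the start, in Il1a the AP-1 site 12 to 6 bases before it, and in Ccl20 the NF-kB match 80 to 71 bases before it, on the strand opposite to the gene. The Reg4 stretch held none of the 4 motifs. Over all 32851 such promoter stretches, 1.55% held the full element, 17.8% TGACG, 6.75% the AP-1 site and 7.25% the NF-kB consensus. By gene, with every start counted, the shares of 27025 genes were 1.77%, 19.8%, 7.82% and 8.23%. Among the matched genes with the smallest p, counting every start of a gene, 0 of 10 on the positive side and 0 of 8 on the negative side held the full element. TGACG was found for Ankmy1, the AP-1 site for Il1a and D930048N14Rik, and the NF-kB consensus for Steap4. A match is only a run of letters, and no match says nothing about binding elsewhere.

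The other genes with the smallest p on the positive side mostly had negative estimates in WT. For 6 of the 12, the WT estimate was negative and the mutant estimate positive. The same held for 323 of all 527 genes with a positive difference at unadjusted p under 0.05, and choosing genes by the difference favours such opposite signs. Pdk2, a kinase that switches off pyruvate dehydrogenase and so limits the use of glucose carbon in mitochondria, had signals of 9.50, 9.50, 9.57 and 9.47 log2 in WT and 8.92, 8.83, 8.82 and 8.99 with TNFa. In mutant it had 9.16, 9.22, 9.05 and 9.14 and, with TNFa, 8.95, 9.09, 8.93 and 9.07. Mutant was thus lower than WT without TNFa, on every array, and the groups given TNFa overlapped. The difference of effects was 0.49 log2 (SE 0.084, limma adjusted p = 0.104), from −0.62 in WT and −0.13 in mutant. Gm15401 fell by 0.60 log2 in WT (limma adjusted p = 9.7e-06) against −0.064 in mutant, a difference of 0.53 (adjusted p = 0.104). Zdhhc15, a protein palmitoyltransferase, had −0.59 in WT and 0.14 in mutant, but its mutant signals were low in either condition (6.67 ± 0.14 and 6.80 ± 0.09 log2, against 7.48 ± 0.19 and 6.89 ± 0.13 in WT, n = 4 each). The signals of TNFa-treated WT were close to those of mutant. The growth factor receptor gene Fgfr3 had 8.77 ± 0.04 log2 in WT and 8.64 ± 0.12 in mutant without TNFa, and 8.18 ± 0.15 and 8.64 ± 0.16 with it, a difference of 0.59 log2 (limma adjusted p = 0.274). The metalloreductase Steap4 (−0.41 and 0.36 log2 in WT and mutant, difference 0.77) and the sulfhydryl oxidase Qsox2 (−0.41 and 0.072, difference 0.48) completed the metabolic and surface genes of this group.

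The 12 genes with the smallest p on the positive side also held several genes of secretory cells, namely the glucagon gene Gcg, the alpha-defensins Defa31 and Defa40, the secreted phospholipase Pla2g2a and Reg4 itself. In bulk RNA, more cells of a type and more RNA per cell cannot be told apart. Among all 32 gene lists, the lists with the highest median difference and at least 5 tested members were enteroendocrine cell genes and small intestine and Paneth cell genes, against a median of 0.0067 log2 over all genes tested. Without WT + TNFa 4, and among genes with a called averaged effect, the second place went to another list.

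**Figure D2:**
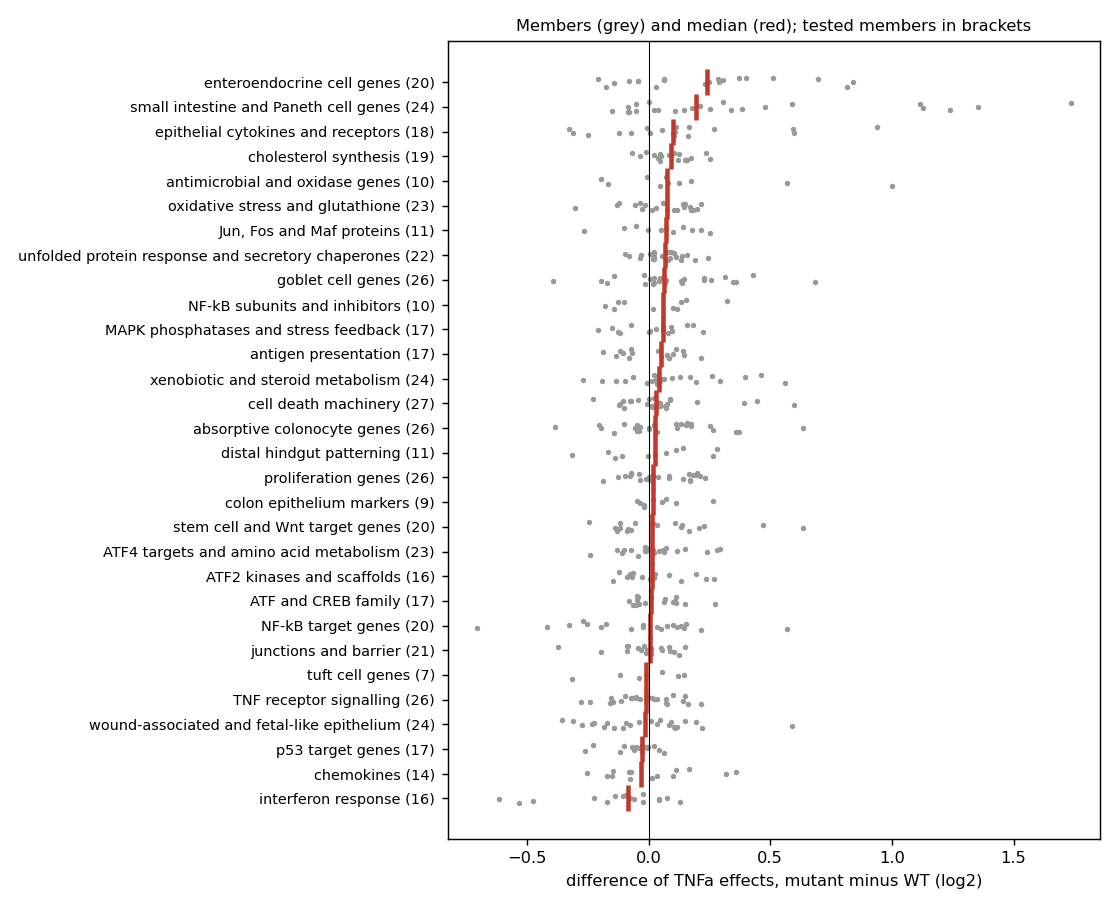
Difference of TNFa effects (mutant minus WT, log2) for the tested members of each gene list with at least 5 of them (grey) and the list's median (red). Enteroendocrine genes (median 0.24) and small intestine and Paneth cell genes (0.19) lie at the top and interferon response genes (−0.084) at the bottom.

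Genes of Paneth cell products had some of the largest estimates. In the list of small intestine and Paneth cell genes 9 of 24 tested members had a positive difference at unadjusted p under 0.05 and 0 a negative one, and the median difference was 0.19 log2 (median effects −0.20 in WT and 0.029 in mutant). By the adjusted test over all genes, TNFa lowered 4 members and raised 1 in WT, and lowered 0 and raised 5 in mutant, against 5.75% lowered and 5.03% raised of all genes tested in WT and 2.47% and 3.51% in mutant. With each array left out, 7 to 10 members had a positive difference at that level (10 without WT + TNFa 2) and none a negative one. The median ran from 0.13 without WT + TNFa 4 to 0.29 without WT + TNFa 2. Defa31, an alpha-defensin that kills bacteria, had signals of 7.43, 7.32, 6.67 and 6.72 log2 in WT and 6.61, 6.53, 6.64 and 6.45 with TNFa. In mutant it had 6.77, 6.97, 7.14 and 7.33 without TNFa and 7.80, 7.25, 8.08 and 8.14 with it. Every TNFa-treated mutant array was above every TNFa-treated WT array, while the untreated groups overlapped. The effects were −0.48 in WT (limma adjusted p = 0.127) and 0.76 in mutant (adjusted p = 0.0215), a difference of 1.24 log2 (SE 0.27, adjusted p = 0.275). It was called when mutant + TNFa 2, the lowest array of its group, was left out (adjusted p = 0.0402). With any other array left out it was not called, with limma adjusted p up to 0.521.

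Lyz1, the Paneth cell lysozyme that digests bacterial walls, had 9.81, 9.65, 8.85 and 9.0 log2 in WT, 8.43, 8.33, 8.77 and 8.83 in WT with TNFa, 9.31, 9.39, 9.44 and 9.77 in mutant and 9.75, 9.46, 9.99 and 10.26 in mutant with TNFa. The 4 WT arrays fell into a higher pair (WT 1 and 2) and a lower pair (WT 3 and 4), and the lower pair was close to the treated WT arrays. Arrays were left out singly, so how far the WT effect rests on the higher pair was not tested. The effects were −0.74 in WT (limma adjusted p = 0.0252) and 0.39 in mutant (adjusted p = 0.387), with a difference of 1.13 (SE 0.29, adjusted p = 0.332). Lyz2, the lysozyme of macrophages, gave nearly the same values, with a difference of 1.12 log2 and effects of −0.74 and 0.37. The gene pair is alike in sequence, and whether probes for one gene detect the transcript of the other was not tested. Both genes count as members of the list above. The 5 other immune cell markers on the array stayed dim in all groups, and the source of the Lyz2 signal was not tested.

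Defa17 gave an estimate of 1.74 log2 with a wide 95% interval of 0.74 to 2.73, and Defa3, outside the list, the same values. Defa17 had 8.28, 8.42, 7.30 and 7.06 log2 in WT and 6.94, 6.01, 7.60 and 6.55 in WT with TNFa. WT 1 and 2 were again the higher pair, and the groups overlapped. Untreated WT arrays stood in the same pairs for Defa30, Lyz2, Gcg and Reg4. Its mutant signals were 7.75, 8.16, 8.11 and 8.11, and 8.93, 8.02, 9.16 and 8.98 with TNFa. Defa30 (1.35), Defa40 (1.00, a member of the family outside the list) and Defa20 (0.34) had positive differences as well. Alpha-defensin genes are close copies of each other, so their values are not independent. Mptx1 and Mptx2, which encode mucosal pentraxins, had effects near 0 or small in WT (−0.0072 and 0.13 log2) and rose in mutant (0.47 and 0.51, limma adjusted p = 0.00246 and 0.00195), with differences of 0.48 and 0.38. The metalloprotease Mmp7, which activates defensins, had a difference of 0.59 (0.59 in WT and 1.18 in mutant). Another Paneth cell product, the ribonuclease Ang4, gave 0.039 log2, with effects of 1.16 in WT and 1.20 in mutant. The enterocyte genes of the same list had smaller values: the apolipoprotein genes Apoa1, Apoa4, Apob and Apoc3 lay between −0.052 and 0.25 log2, and the transcription factor gene Gata4 had −0.084.

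**Figure D3:**
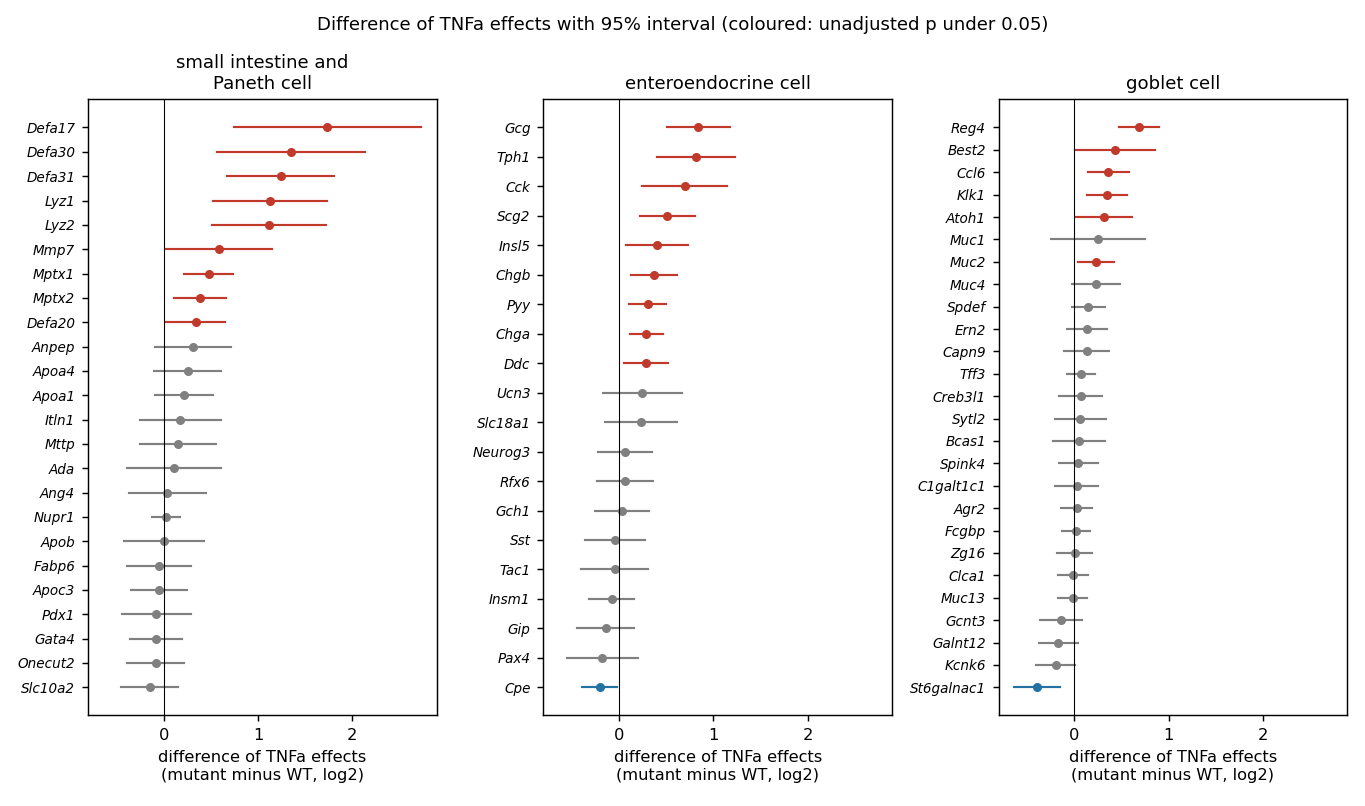
Difference of TNFa effects (mutant minus WT, log2, horizontal axis) with its 95% interval for each tested member of the lists of small intestine and Paneth cell, enteroendocrine cell and goblet cell genes. Coloured members had unadjusted p under 0.05: 9 of 24, 10 of 20 and 7 of 26, of which Cpe and St6galnac1 were negative.

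Enteroendocrine cell genes followed. These cells release peptide hormones or serotonin from granules in response to the gut content. In their list 9 of 20 tested members had a positive difference at unadjusted p under 0.05 and 1 a negative one, and the median difference was 0.24 log2 (median effects −0.16 in WT and 0.019 in mutant). TNFa lowered 4 members and raised 3 in WT by the adjusted test, and lowered 0 and raised 4 in mutant. Of all genes tested, 5.75% were lowered and 5.03% raised in WT, and 2.47% and 3.51% in mutant. With each array left out, 8 or 9 members had a positive difference at that level. The median was 0.14 without WT + TNFa 2 and 0.15 without WT 3. Gcg, which encodes proglucagon, the source of the hormone GLP-1 in the colon, had signals of 9.29, 9.41, 9.13 and 8.92 log2 in WT and 8.98, 9.0, 8.88 and 8.64 with TNFa, which overlapped. In mutant it had 9.32, 9.47, 9.46 and 9.40 and, with TNFa, 9.94, 9.64, 10.07 and 10.11, which did not. Its WT effect was −0.31 (limma adjusted p = 0.0932) and its mutant effect 0.53 (adjusted p = 0.00689). The difference was 0.84 log2 (SE 0.16, 95% interval 0.50 to 1.18, adjusted p = 0.143).

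Tph1, the rate-limiting enzyme of serotonin synthesis in enterochromaffin cells, rose in both genotypes. It had 6.75, 6.85, 6.72 and 6.92 log2 in WT, 7.85, 7.72, 7.74 and 7.65 in WT with TNFa, 6.58, 7.01, 6.49 and 7.10 in mutant and 8.60, 8.14, 8.58 and 8.84 in mutant with TNFa. The untreated groups overlapped and the treated ones did not. The rises were 1.91-fold in WT and 3.35-fold in mutant, a difference of 0.81 log2 (SE 0.19, limma adjusted p = 0.297). Cck, the gene of the satiety hormone cholecystokinin, gave 7.64, 7.83, 7.71 and 7.71 log2 in WT with TNFa, close to untreated WT (7.72 ± 0.09), and 8.75, 7.91, 8.93 and 8.53 in mutant with TNFa, where mutant + TNFa 2 was again the lowest. Its difference was 0.70 log2 (adjusted p = 0.424, or 0.0174 without that array). Without the same array the difference of Gcg also passed (adjusted p = 0.0303). With any other array left out neither gene was called, with limma adjusted p up to 0.707 for Cck and 0.414 for Gcg.

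The granule protein genes Scg2, Chga and Chgb had smaller differences of the same sign. Scg2, a secretogranin, fell by 0.49 log2 in WT (limma adjusted p = 0.0027) with 0.019 in mutant, a difference of 0.51 (adjusted p = 0.345). Its full cyclic AMP response element is printed above, but Scg2 was not among the genes with the smallest p counted there. Whether the element bears on the difference was not tested. The chromogranin genes Chga and Chgb had 0.29 and 0.37, the hormone genes Pyy and Insl5 0.30 and 0.40, and Ddc, which makes serotonin from its precursor, 0.28. For Chga, the WT arrays went from 7.66 ± 0.10 to 7.36 ± 0.01 log2 and the mutant arrays from 7.64 ± 0.09 to 7.63 ± 0.03 (n = 4 each). Cpe, a prohormone-trimming carboxypeptidase that other cells express too, had a negative difference (−0.21 log2, unadjusted p = 0.0313). The tested transcription factor genes of the lineage had unadjusted p above 0.05: Neurog3 gave 0.064 log2, Rfx6 0.062, Insm1 −0.079 and Pax4 −0.18. The same was true of the remaining peptide genes, with −0.14 for Gip, −0.045 for Tac1, −0.042 for Sst and 0.25 for Ucn3.

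Goblet cell genes were mixed. In their list 6 of 26 tested members had a positive difference at unadjusted p under 0.05 and 1 a negative one, and the median difference was 0.065 log2 (median effects −0.11 in WT and −0.039 in mutant). With each array left out, 4 to 7 members were positive and 1 to 3 negative (3 without mutant 1), and the median ran from 0.031 without WT + TNFa 3 to 0.13 without WT + TNFa 2. Beside Reg4 the positive members were the channel gene Best2 (0.43 log2, or 0.23 without WT + TNFa 2), the chemokine gene Ccl6 (0.36), the kallikrein gene Klk1 (0.35), the secretory lineage factor Atoh1 (0.31) and Muc2 (0.23), the main mucin of colon mucus. Muc2 had 12.27 ± 0.08 log2 in WT, 12.03 ± 0.14 with TNFa, 12.15 ± 0.06 in mutant and 12.13 ± 0.02 with TNFa (n = 4 each). Ccl6 rose in both genotypes, 1.32-fold in WT and 1.7-fold in mutant. The sialyltransferase St6galnac1, which caps mucin sugars, had the opposite sign, rising 1.91-fold in WT and 1.45-fold in mutant (−0.39 log2, limma adjusted p = 0.391). The mucus proteins Fcgbp, Zg16, Clca1, Agr2 and Tff3 lay between −0.014 and 0.072 log2. Of 7 tested tuft cell genes, none had unadjusted p under 0.05.

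Several genes of the inflammatory response itself rose more in mutant by their estimates, and others rose less. Among epithelial cytokines and receptors 3 of 18 tested members had a positive difference at unadjusted p under 0.05 and 1 a negative one. Of 10 antimicrobial and oxidase genes, 2 were positive at that level and 0 negative. The shares of all genes tested were 4.48% and 2.79%. By sign alone, NF-kB target genes had 10 positive estimates and 10 negative ones. Pla2g2a, a phospholipase that kills bacteria and is made by Paneth cells, had 7.65, 7.56, 7.56 and 7.33 log2 in WT, 8.18, 7.98, 8.06 and 7.92 in WT with TNFa, 6.52, 7.15, 6.84 and 7.15 in mutant and 8.15, 8.28, 8.60 and 8.68 in mutant with TNFa. Mutant was below WT without TNFa on every array, and the treated groups overlapped. The rises were 1.43-fold and 2.85-fold, a difference of 1.00 log2 (SE 0.19, limma adjusted p = 0.143). Il1a, the alarm cytokine interleukin 1 alpha, had 5.72, 6.19, 6.0 and 5.87 log2 in WT, 7.55, 7.55, 7.85 and 8.26 in WT with TNFa, 5.60, 6.0, 5.42 and 5.60 in mutant and 8.49, 8.37, 8.45 and 8.50 in mutant with TNFa. Here the treated groups were apart and the untreated ones, both dim, overlapped. The difference was 0.94 log2 (SE 0.20, adjusted p = 0.275, or 0.049 and a call without WT + TNFa 4, the highest of its group). With any other array left out Il1a was not called, with limma adjusted p up to 0.521.

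Unlike Il1a, Tnf and Nos2 ended at similar levels in both genotypes with TNFa. Tnf, the cytokine gene, reached 8.85 ± 0.20 log2 in WT with TNFa and 8.91 ± 0.12 in mutant with TNFa, and its lower untreated signal in mutant (6.58 ± 0.38 against 7.12 ± 0.14 in WT, n = 4 each) stood beside a difference of 0.59 (SE 0.20, limma adjusted p = 0.519). Nos2, the inducible nitric oxide synthase, ended at 10.07 ± 0.16 and 10.08 ± 0.15 from dim levels of 6.40 ± 0.16 and 5.84 ± 0.49, a difference of 0.57 (adjusted p = 0.635). On the linear signal scale, where 2 to the power of the log2 value is averaged, TNFa added 325 units of Tnf signal in WT and 383 in mutant, and 999 and 1028 units of Nos2. For Il1a the units added were 166 and 299, and for Pla2g2a 78 and 225. Of the 94 genes with values by array, 92 kept the sign of their difference on the linear scale, and the exceptions were the ceruloplasmin gene Cp and Ecscr. The death ligand gene Tnfsf10 had a difference of 0.60 log2, with rises of 2.52-fold in WT and 3.8-fold in mutant from dim signals.

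**Figure D4:**
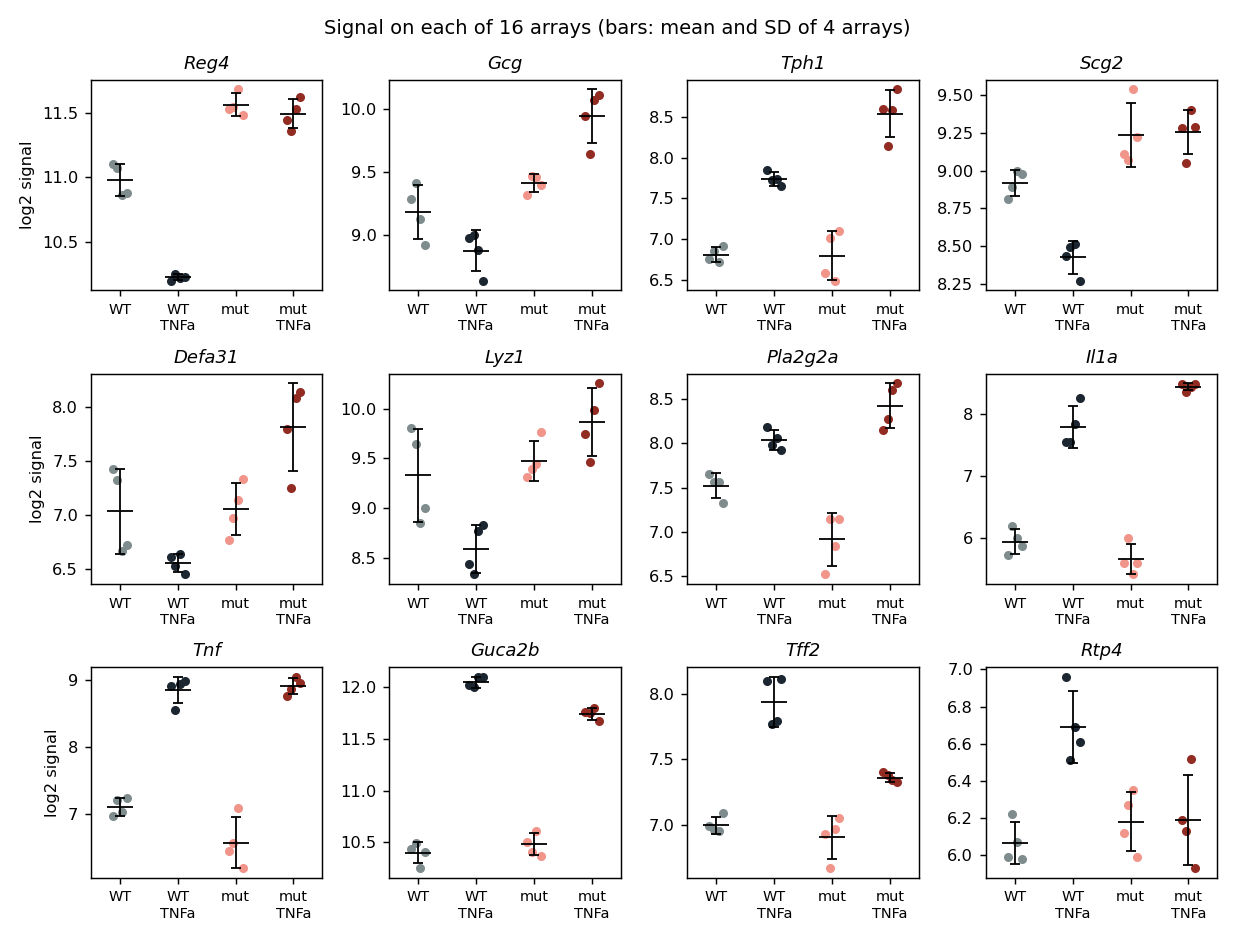
Log2 signal of 12 genes on each of the 16 arrays (points, 4 per group, mut for mutant) with the group mean and SD (bars), each panel on its own axis. Reg4, Gcg, Tph1, Scg2, Defa31 and Lyz1 are higher in mutant than in WT on every TNFa-treated array, Guca2b and Tff2 lower, and for Pla2g2a, Tnf and Rtp4 the treated groups overlap.

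The genes with the largest TNFa effects varied in how their effects compared between genotypes. Ccl20, a chemokine that attracts lymphocytes and dendritic cells and the strongest responder, had 11.57, 11.24, 11.49 and 11.49 log2 in WT with TNFa and 11.58, 11.46, 11.60 and 11.48 in mutant with TNFa, which overlapped. Its rises were 17.7-fold and 19-fold, and the difference was 0.100 log2 with a 95% interval of −0.24 to 0.44. All 8 genes with an averaged rise of 4-fold or more had a positive estimate, which became 6 to 8 of 8 with each array left out. They were Ccl20, Nos2, Il1a, Tnf, the chloride channel regulator Clca4b (0.29, or 0.074 without WT + TNFa 2), the fatty acyl-CoA reductase Far2 (0.42), Cp (0.52) and Ecscr (0.041). Csf1, the macrophage growth factor, had −0.33 log2 (−0.82 to 0.17, with an estimate of −0.18 without mutant + TNFa 2) and Tnfaip3, the gene of the NF-kB inhibitor A20, −0.072 (−0.42 to 0.28), or 0.018 with array weights. Among the falls, the pore-forming gasdermin genes Gsdmc3, Gsdmc4 and Gsdmc2 had 0.45, 0.39 and 0.20 (the last 0.081 to 0.42 with an array left out), and the aldo-keto reductase Akr1c14, which acts on steroids, 0.56. The pseudogene Trim30e-ps1 (−0.48) and the uncharacterised 2010106E10Rik (−0.61) were more negative in mutant.

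**Figure D5:**
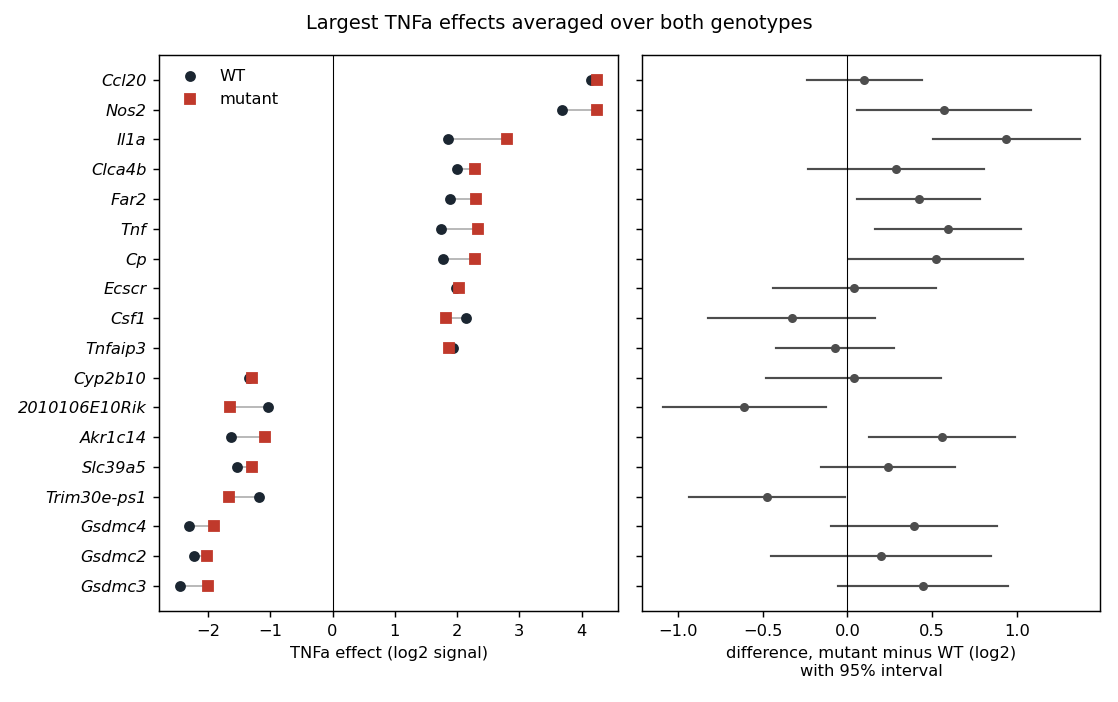
Left, the TNFa effect in WT (circles) and mutant (squares) for the 10 largest rises and 8 largest falls averaged over both genotypes. Right, the difference (mutant minus WT, log2) with its 95% interval, which spans 0 for Ccl20, Clca4b, Ecscr, Csf1 and Tnfaip3 among the rises.

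Across the 1766 genes with a called averaged TNFa effect (15% of genes tested), rises and falls differed. Of all 11766 genes tested, 6123 (52.0%) had a positive difference and 5643 a negative one. Of 849 genes that fell on average (7.22%), 662 had a shallower fall in mutant by their estimates, with a median difference of 0.22 log2 for the 20 falls of at least 2-fold, 0.16 for the 59 between 1.5-fold and 2-fold, and 0.10 for the 770 smaller ones. Of 917 genes that rose (7.79%), 526 had a smaller rise in mutant, and the median differences were −0.015 for the 44 rises between 2-fold and 4-fold and −0.023 for the 786 under 1.5-fold. With each array left out the counts ran from 631 to 673 of 849 and from 484 to 554 of 917. Without WT + TNFa 2 they were 673 and 536. The median SD was larger in WT with TNFa than in the other groups, as given above, and its part in these counts was not tested. Many more genes were called in WT alone than in mutant alone, 760 against 195, but only 258 of the 760 and 68 of the 195 had unadjusted p under 0.05 for the difference itself. The order of the genotypes turned when each was fitted on its own 8 arrays, with 720 genes called in WT and 801 in mutant.

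The genes that carry the TNF signal stood out about as often as all genes tested. Among TNF receptor signalling genes 1 of 26 tested members had a positive difference at unadjusted p under 0.05 and 1 a negative one, the differences lay between −0.28 and 0.21 log2, and the median difference was −0.012 log2 (median effects 0.16 in WT and 0.083 in mutant). The list spans the receptors, the adaptors and kinases below them, and the ubiquitin-editing inhibitors. Birc3, an inhibitor of apoptosis that is part of the receptor complex, was the highest (0.21, with rises of 2.01-fold in WT and 2.33-fold in mutant), and Tab3, an adaptor of the kinase TAK1, had −0.24. Of 10 NF-kB subunits and inhibitors, 1 had a positive difference at unadjusted p under 0.05 and 0 a negative one. This was Bcl3, a nuclear partner of NF-kB (0.32 log2, unadjusted p = 0.0127). By the adjusted test 8 of the 10 rose with TNFa in WT and 8 in mutant, against 5.03% and 3.51% of all genes tested.

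The kinases that phosphorylate ATF2, with their scaffolds, gave differences from −0.15 to 0.27 log2 over 16 genes, and 0 positive and 0 negative members at unadjusted p under 0.05. In the ATF and CREB family 1 of 17 tested members had a positive difference at unadjusted p under 0.05 and 0 a negative one. Atf2 itself had −0.041 log2 (95% interval −0.22 to 0.14), and the positive member was Creb3l4 (0.27). Among Jun, Fos and Maf genes, the partners of ATF2 in AP-1, Jun had 0.25 and Fosl1 −0.26 (unadjusted p = 0.0496 and 0.0357). Jun signal was lower in mutant than in WT without TNFa, 7.89 ± 0.08 against 8.46 ± 0.16 log2 (n = 4 each). None of the 17 tested MAPK phosphatase and stress feedback genes had unadjusted p under 0.05.

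Interferon response genes had the lowest median of all lists with at least 5 tested members, −0.084 log2. A negative estimate was found for 12 of 16, against 5643 of all 11766 genes tested and 14 of 17 p53 target genes (median −0.029). The interferon median ran from −0.049 without mutant 2 to −0.13 without mutant 3. Another list was lowest with no filter, with the stricter filter, with array weights and without some single arrays, WT + TNFa 2 among them. At unadjusted p under 0.05, 3 interferon response genes were negative and 0 positive. Rtp4, an interferon-induced receptor chaperone, had 5.99, 6.22, 6.07 and 5.98 log2 in WT and 6.96, 6.51, 6.69 and 6.61 with TNFa. In mutant it had 6.12, 6.27, 6.35 and 5.99, and 6.19, 6.13, 6.52 and 5.93 with TNFa. It rose 1.54-fold in WT from a dim level (limma adjusted p = 0.0018), while the mutant groups overlapped (0.0099 log2), and the difference was −0.62 (SE 0.17, adjusted p = 0.345). The ubiquitin-like antiviral protein Isg15 had −0.53 and the virus-tethering protein Bst2 −0.22 (−0.14 without WT 3). By contrast Irf1, a transcription factor that NF-kB also induces, gave −0.021 log2, and none of the 17 antigen presentation genes had unadjusted p under 0.05.

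Among NF-kB target genes 2 of 20 tested members had a positive difference at unadjusted p under 0.05 and 2 a negative one. The negative members were Tnfaip2 (−0.70 log2) and Icam1 (−0.42), an adhesion molecule for leukocytes. Tnfaip2 had 6.87, 6.55, 7.43 and 7.72 log2 in WT with TNFa and 6.60, 6.09, 6.56 and 6.31 in mutant with TNFa, with WT + TNFa 3 and 4 above the others. Without TNFa it had 6.10 ± 0.17 log2 in WT and 6.05 ± 0.10 in mutant. Its mean was dim in every group except WT with TNFa. The list holds Nos2 and Birc3, described above. Of 14 chemokine genes, Ccl6 was the single member at unadjusted p under 0.05.

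On the negative side, the genes with the smallest p had smaller differences than on the positive side, between −0.58 and −0.32 log2. Guca2b, which encodes the peptide hormone uroguanylin of absorptive cells, had 10.44, 10.49, 10.25 and 10.41 log2 in WT, 12.02, 12.00, 12.10 and 12.10 in WT with TNFa, 10.50, 10.41, 10.61 and 10.37 in mutant and 11.76, 11.75, 11.80 and 11.67 in mutant with TNFa. The untreated groups overlapped, and with TNFa every mutant array was lower than every WT array, with rises of 3.15-fold and 2.41-fold and a difference of −0.39 (SE 0.092, limma adjusted p = 0.297). Tff2, a trefoil peptide that protects and repairs mucosa, went from 7.00 ± 0.06 to 7.94 ± 0.19 log2 in WT and from 6.90 ± 0.17 to 7.36 ± 0.03 in mutant (n = 4 each), a difference of −0.49 (adjusted p = 0.332). Gpd2, the mitochondrial glycerol-3-phosphate dehydrogenase, had −0.40, from 0.31 in WT and −0.090 in mutant. The others were Dtwd2 (−0.36), Zfat, the phosphatase Ptpro (−0.43), Epop (−0.39), the amino acid transporter Slc36a4 (−0.45), Morc4 (−0.44), D930048N14Rik (−0.35), Ankmy1 (−0.38) and the transglutaminase Tgm5. Mean signals of Ptpro, Slc36a4, Ankmy1 and Tgm5 were dim in at least 1 group, and those of Tgm5, which had the largest difference, in every group. For 9 of these 12 genes the estimate was positive in WT and negative in mutant. The same held for 234 of all 328 genes with a negative difference at unadjusted p under 0.05. Choosing genes by the difference favours such opposite signs.

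Among the remaining epithelial programs, no gene passed the adjusted test of the difference. Of 26 absorptive colonocyte genes, 4 were positive at unadjusted p under 0.05 and 1 negative. They included the sodium channel gene Scnn1a (0.37 log2, after a called fall of 0.45 in WT), the brush border protein villin, Vil1 (0.26), and the water channel Aqp4 (0.64, or 0.42 without WT + TNFa 2). By the adjusted test TNFa lowered 16 of 24 xenobiotic and steroid metabolism genes in WT and 14 in mutant, against 5.75% and 2.47% of all genes tested. Their median difference was 0.041 log2 (median effects −0.41 in WT and −0.29 in mutant). The members of this list at unadjusted p under 0.05 were Akr1c14, Hsd3b3 (0.46) and Aldh1b1 (0.29), all positive. In the wound-associated list 3 of 24 genes were negative and 1 positive: the matricellular YAP target Ccn2 (−0.36), the laminin receptor subunit Itga6 (−0.23) and the alarmin Il33 (−0.31), against Mmp7. Znrf3, which encodes a Wnt receptor ligase, had 0.47 (0.28 without WT + TNFa 2) and Tnfrsf19 −0.25 among stem cell and Wnt target genes. Single members at that level were Mylk, the myosin kinase that opens tight junctions (−0.37), Herpud1 of the unfolded protein response (0.19), Chac1, an ATF4 target (0.24, or 0.15 without WT 2), the cholesterol synthesis gene Mvd (0.25), Gsta3 (−0.30), the hindgut gene Hoxb9 (0.28) and the p53 target Aen (−0.26, or −0.17 without WT + TNFa 2). Of 26 proliferation genes, none reached it, with differences from −0.19 to 0.23 log2.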

How the data were processed

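RNA of mouse colon organoids was measured on 16 single-colour arrays, 1 per sample, 4 in each of 4 groups. Per the submitters' processing notes, the authors made the deposited log2 values with RMA in Affymetrix Expression Console. The sources used here give no version, array design or build. RMA evens out array distributions, so a shift shared by all genes cannot be seen.

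Of 19825 probe sets, 18851 carried a gene symbol, giving 18850 genes, and for each gene the brightest probe set on average stood for it. Tested were genes above its array's 40th percentile (6.40 to 6.56 log2) on at least 4 of 16 arrays, which left 11766. Group means were fitted with limma 3.58.1 (R 4.3.3), in 1 fit to all arrays, with Benjamini-Hochberg adjustment over all genes tested and calls at adjusted p under 0.05. Errors are the fit's SE or the SD of 4 arrays, and intervals cover 95%. The precision is limited by the number of arrays. The procedure was tested on simulated data.

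The comparison, the genes and the 32 gene lists (684 genes, 520 of them tested) were chosen with earlier results of these data known. Named were the called gene, the 12 genes with the smallest p in each direction, the 10 largest rises and 8 largest falls averaged over genotypes, up to 3 members of each list at unadjusted p under 0.05, Atf2, and members of the TNF receptor and ATF2 kinase lists. Further secretory cell genes, other list members, Lyz2, Col1a1, Defa3 and the genes among the other observations were named after their values were seen. Alternatives covered the dim-gene filter, probe sets, variance model, array weights, normalization, replicate blocks, a minimum fold and each array left out.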

Additional observations from a re-analysis of the deposited data

Results flagged for a closer look

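The difference between the TNFa effects in WT (−0.75 log2) and mutant (−0.07 log2) was 0.69 log2 for Reg4, by limma's test of the difference itself. In addition, 17 of 376 groups of 4 arrays (94 named genes in 4 groups each) held an array whose gap to the nearest other array exceeded Dixon's 95% limit, where chance gives about 1 group in 20. The arrays with the most such values were mutant + TNFa 4, with 4, and mutant + TNFa 3, with 3.

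On mutant + TNFa 4 these were Cyp2b10 at 6.22 log2 (5.49 to 5.58 on the other arrays of the group), Mylk at 6.49 (6.71 to 6.74), Dtwd2 at 6.83 (6.94 to 6.96) and Muc2 at 12.16 (12.12 on the others). On mutant + TNFa 3 they were Epop at 7.69 log2 (7.87 to 7.89 on the others), Herpud1 at 10.58 (10.51 to 10.52) and St6galnac1 at 7.64 (7.42 to 7.44). On mutant + TNFa 2, Morc4 had 6.60 log2 (6.78 to 6.79). Among untreated mutant arrays, Defa17 had 7.75 log2 on mutant 1 (8.11 to 8.16) and Mmp7 7.30 on the same array (7.89 to 7.95). Mutant 2 had Clca4b at 9.87 log2 (9.27 to 9.30) and Ecscr at 4.19 (4.85 to 4.96), and mutant 4 had Defa30 at 8.02 (7.49 to 7.55). Among WT arrays with TNFa, Znrf3 had 7.62 log2 on WT + TNFa 2 (8.34 to 8.39), Best2 6.08 on the same array (6.82 to 6.94), and Mvd 10.93 on WT + TNFa 4 (10.66 to 10.68). On WT 2, Epop had 7.59 log2 (7.80 to 7.84).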

How the results depend on the processing

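The count of genes called for the difference of TNFa effects was 1 (Reg4), with 1 also for single probe sets, centred medians and repeated quantile normalization. Taking probe set means could alter no more than 1 gene, since only 1 had a second probe set, and so tests nothing. With no filter the count was 1, but the gene was Ccdc136. It was 3 with the 60th percentile filter and with array weights (Reg4, Pdk2 and Gm15401 in both), 5 with a variance trend and robust fitting, and 6 among genes with a called averaged effect. It was 0 with a minimum change of 1.5-fold, and 0 to 4 with each array left out (0 for 11 of 16). At unadjusted p under 0.05, 855 genes became 255 among genes with a called averaged effect, 1333 with array weights (880 positive, 453 negative) and 699 to 1205 with an array left out. The positive and negative counts were 464 and 404 after repeated quantile normalization and 578 and 290 with centred medians.

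The replicate block gave 0 calls, with the number as a block over all groups (Reg4 adjusted p = 0.226) or within genotype (0.193). Deviations of same-numbered arrays correlated between −0.31 and 0.28 over 24 pairs, and 5 of 24 had their highest correlation with their own number. Correlations over so few arrays cannot settle whether same-numbered arrays are paired, and no label says whether they are.

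Genes called in WT numbered 1269, or 59 with the minimum fold, 720 from WT arrays alone and 955 to 1430 with an array left out. In mutant they numbered 704, or 54 with the minimum fold, 1095 with array weights, 801 from mutant arrays alone and 504 to 900 with an array left out. Of 94 named genes, 89 kept their direction under every setting run for them. The exceptions were Tnfaip3 (0.018 with array weights, −0.16 to 0.039 with an array left out), Ecscr (−0.14 to 0.14), Cyp2b10 (−0.14 to 0.18), Ccl20 (−0.0077 to 0.19) and Atf2 (−0.10 to 0.0051). Of the lists' medians, 7 of 860 moved beyond the spread between arrays. Dim signals, below 6.56 log2 in at least 1 group for 20 of the named genes, make fold changes approximate.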

Other observations

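Some genes outside the lists had large estimates with a wide error. Slc6a14, an amino acid transporter gene, had 7.24 ± 0.31 log2 without TNFa and 7.21 ± 0.26 with it in WT, and 5.74 ± 0.39 and 6.86 ± 0.21 in mutant (n = 4 each). It rose in mutant by 1.12 log2 (limma adjusted p = 0.000782), and the difference of effects was 1.15 (95% interval 0.60 to 1.70, adjusted p = 0.275). Lcp1, which encodes the actin-bundling protein L-plastin, had 6.76 ± 0.27 log2 and 6.75 ± 0.27 in WT, and 6.66 ± 0.23 and 7.75 ± 0.35 in mutant. It also rose in mutant (1.09 log2, limma adjusted p = 0.000601), with −0.0035 in WT and a difference of 1.09 (0.58 to 1.61, adjusted p = 0.275). In the opposite direction, Efemp1, an extracellular matrix gene, fell by 1.17 log2 in mutant (limma adjusted p = 0.00678) with −0.12 in WT, a difference of −1.05 (−1.79 to −0.31, adjusted p = 0.483). Krt36, a hair-type keratin gene, rose by 1.18 log2 in WT (limma adjusted p = 0.00949) from a dim 6.53 ± 0.24, while mutant had 8.79 ± 0.76 without TNFa and 8.95 ± 0.41 with it, and the difference was −1.02 (adjusted p = 0.564).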
